A study of Mus musculus with 85 samples.

Results

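Collagen genes were described in a mouse study of the NSL complex, a chromatin complex whose members Mof, Kansl2 and Kansl3 were deleted with Nestin-Cre. A gene was taken as a collagen by its symbol, Col followed by a type number, the letter a and a chain number, and it had to reach a mean of at least 10 in at least 1 table. This gave 42 genes of the 47937 Ensembl genes in the sorted-cell and culture tables (43626 in the whole-brain table). By collagen type, 11 code for fibrillar chains (types I, II, III, V, XI, XXIV and XXVII), 8 for basement membrane chains (types IV, XV and XVIII) and 23 for other types. Of the 44 collagen symbols listed, Col10a1 and Col6a6 stayed under that mean in every table.

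RNA was sequenced from brains of mid-gestation (E14.5) mouse embryos labelled Mof nKO, Kansl2 nKO and Kansl3 nKO, each set against Cre control brains labelled as carrying Cre alone. Whole brain had 3 libraries per group. Neural cells, sorted by flow cytometry like the other 3 cell types, also had 3 per group. Endothelial cells had 4 Mof nKO, 3 Kansl2 nKO, 3 Kansl3 nKO and 4 Cre libraries, pericytes had 3, 3, 4 and 4 in the same order of groups, and microglia had 3 Mof nKO and 3 Cre libraries. Pericytes from adult wild-type brain were also cultured with fatty acids conjugated to albumin (C14:0 and C16:0 at 200 µM each, C20:0 at 20 µM and C24:0 at 10 µM) or with vehicle, ethanol plus albumin, with 3 libraries each. Nestin-Cre is driven by a promoter active mainly in neural progenitors, and the labels do not say how far it acted in the sorted vascular cells and microglia. They number the libraries without saying which came from separate animals or cultures, so p-values measure only the spread between these libraries. Libraries are named below as labelled, for example K2_63.

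Collagens are secreted proteins whose chains wind into triple helices. Fibrillar types build the cables of skin, bone and vessel walls, type IV forms the mesh of basement membranes, and types XV and XVIII are proteoglycans that sit in those membranes. In the brain, endothelial cells and pericytes share the vascular basement membrane, while fibroblasts of the meninges and vessel walls make most fibrillar collagen. Other types include the beaded filaments of type VI, the network-forming type VIII, the fibril-associated types such as XII and XVI, and transmembrane types such as XXV.

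Reads assigned to genes per library numbered 42623429 to 51854152 for cultured pericytes and 8444551 to 12641817 for whole brain. Sorted cells had 5687012 to 12665665 (neural), 10048082 to 25260285 (endothelial), 1572515 to 5852542 (pericytes) and 2215701 to 9817084 (microglia). The summed level of 10 endothelial markers was 7325 to 10559 CPM, reads scaled by the library's total, in Cre endothelial libraries and 370 to 536 CPM in Cre pericyte libraries. For 10 pericyte markers the sums were 11060 to 14288 CPM in Cre pericytes and 356.1 to 439.3 CPM in Cre endothelial cells. Cre pericytes also held 3208 to 4280 CPM of 8 neural progenitor markers, and the part of such cells in the pericyte results was not tested. The targeted gene Mof (Kat8 in the tables) fell in Mof nKO whole brain (log2 fold change -0.94 ± 0.13 SE, adjusted p = 0.00234) and neural cells (-1.42 ± 0.12, adjusted p = 9.34e-08). It did not pass in Mof nKO endothelial cells, pericytes or microglia (-0.30, -0.18 and -2.19, adjusted p = 0.84, 0.9 and 0.718), where the groups overlapped, so the Mof label was not checked by this gene there. Kat8 also fell under the Kansl2 and Kansl3 labels in whole brain (-0.64 and -0.89, adjusted p = 0.0027 and 0.000317) and in neural cells (-0.57 and -1.16, adjusted p = 0.00083 and 1.01e-06). Total Kansl2 and Kansl3 counts were not lower in the whole-brain or neural libraries named for them: Kansl2 was 40.7, 43.6 and 45.7 CPM in libraries labelled Kansl2 nKO against 34.2, 29.3 and 31.1 CPM in Cre, and Kansl3 was 84.8, 85.2 and 89.7 CPM in libraries labelled Kansl3 nKO against 71.5, 68.7 and 74.4 CPM in Cre. These groups are therefore called by their labels, and their directions rest on the labels alone.

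The promoters of 3 collagens that the results return to are shown because all 3 genes fell in pericytes labelled Kansl3 nKO and in the treated culture, yet their promoters differ in make-up. RefSeq windows from 250 bases before to 50 bases after the gene start (GRCm38.p6) were given for 35 of the 42 genes, 38 windows in all. Capitals mark, on either strand, the CCAAT box (CCAAT), the GC box (GGGCGG) and the TATA box (TATAAA), searched as exact letters. Matches were taken at any position in the window, some of them after the gene start. Whether any match works as a promoter element was not tested. None of the matches overlap.
Col4a1, chr8:11312777-11313076, minus strand: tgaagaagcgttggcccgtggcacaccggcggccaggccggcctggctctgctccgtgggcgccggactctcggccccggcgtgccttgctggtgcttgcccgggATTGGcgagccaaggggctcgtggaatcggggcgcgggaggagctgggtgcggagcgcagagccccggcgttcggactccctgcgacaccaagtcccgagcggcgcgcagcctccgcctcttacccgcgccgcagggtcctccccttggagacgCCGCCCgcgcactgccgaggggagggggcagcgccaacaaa
Col1a2, chr6:4505368-4505667, plus strand: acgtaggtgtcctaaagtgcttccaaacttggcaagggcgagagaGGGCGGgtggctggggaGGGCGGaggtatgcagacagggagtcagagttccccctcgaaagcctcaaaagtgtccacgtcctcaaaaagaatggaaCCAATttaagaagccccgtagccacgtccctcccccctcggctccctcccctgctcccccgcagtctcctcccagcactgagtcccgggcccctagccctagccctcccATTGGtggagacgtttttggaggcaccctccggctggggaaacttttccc
Col3a1, chr1:45311288-45311587, plus strand: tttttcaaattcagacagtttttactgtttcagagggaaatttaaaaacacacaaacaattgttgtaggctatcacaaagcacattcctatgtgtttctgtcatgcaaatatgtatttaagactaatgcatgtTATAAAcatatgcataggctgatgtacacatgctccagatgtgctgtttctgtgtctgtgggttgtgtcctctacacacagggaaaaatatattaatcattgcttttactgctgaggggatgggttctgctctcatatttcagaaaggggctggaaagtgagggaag
Col4a1 and Col4a2, the chains of the common type IV molecule, lie head to head, with RefSeq starts 21 bases apart and windows that share 78 bases. The Col4a1 window was 74.0% G+C with 1 CCAAT and 1 GC box, both on the reverse strand, and the Col1a2 window was 61.0% G+C with 2 CCAAT boxes and 2 GC boxes. In contrast, the Col3a1 window was 37.7% G+C, with 1 match to the TATA box letters, well before the start, and no match for either other motif. A GC box was found in 23 of the 38 collagen windows (60.5%) and in 35.7% of all 32851 windows, a CCAAT box in 34.2% and 37.4%, and a TATA box in 13.2% and 13.6%. The median G+C was 59.8% in the collagen windows and 52.7% in all windows, and its part in the GC box share was not tested. Because Col4a1 and Col4a2 overlap, and strand use in counting is not given in the sources used here, reads near their shared start cannot be assigned to either with certainty.

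In control libraries each gene had its own pattern across cell types. Col4a1 averaged 2685 ± 768 CPM (SD, n = 4) in endothelial cells, 1152 ± 162 CPM (n = 4) in pericytes, 108 ± 27.7 CPM (n = 3) in whole brain, 13.3 ± 3.35 CPM (n = 3) in neural cells and 8.09 ± 6.09 CPM (n = 3) in microglia. Col18a1, whose product carries endostatin, was 937 ± 140 CPM in endothelial cells and 32.4 ± 10.6 CPM in pericytes. The type III chain Col3a1 ran the other way, at 256.5 to 412.4 CPM in pericytes and 12.3 to 36.4 CPM in endothelial cells (n = 4 each), with 1 of the 3 neural and 2 of the 3 microglial Cre libraries at 0. Col2a1, the cartilage collagen that is also transcribed in neural progenitors, had 107 ± 12.9 CPM in neural cells and 103 ± 8.29 CPM in whole brain. The library ranges of neural cells and whole brain overlapped for Col2a1, as did those of neural cells and microglia for Col4a1. Sorted vascular cells and microglia were amplified with another library kit than whole brain and neural cells, so levels set side by side across those 2 kits also differ in preparation.

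**Figure D1:**
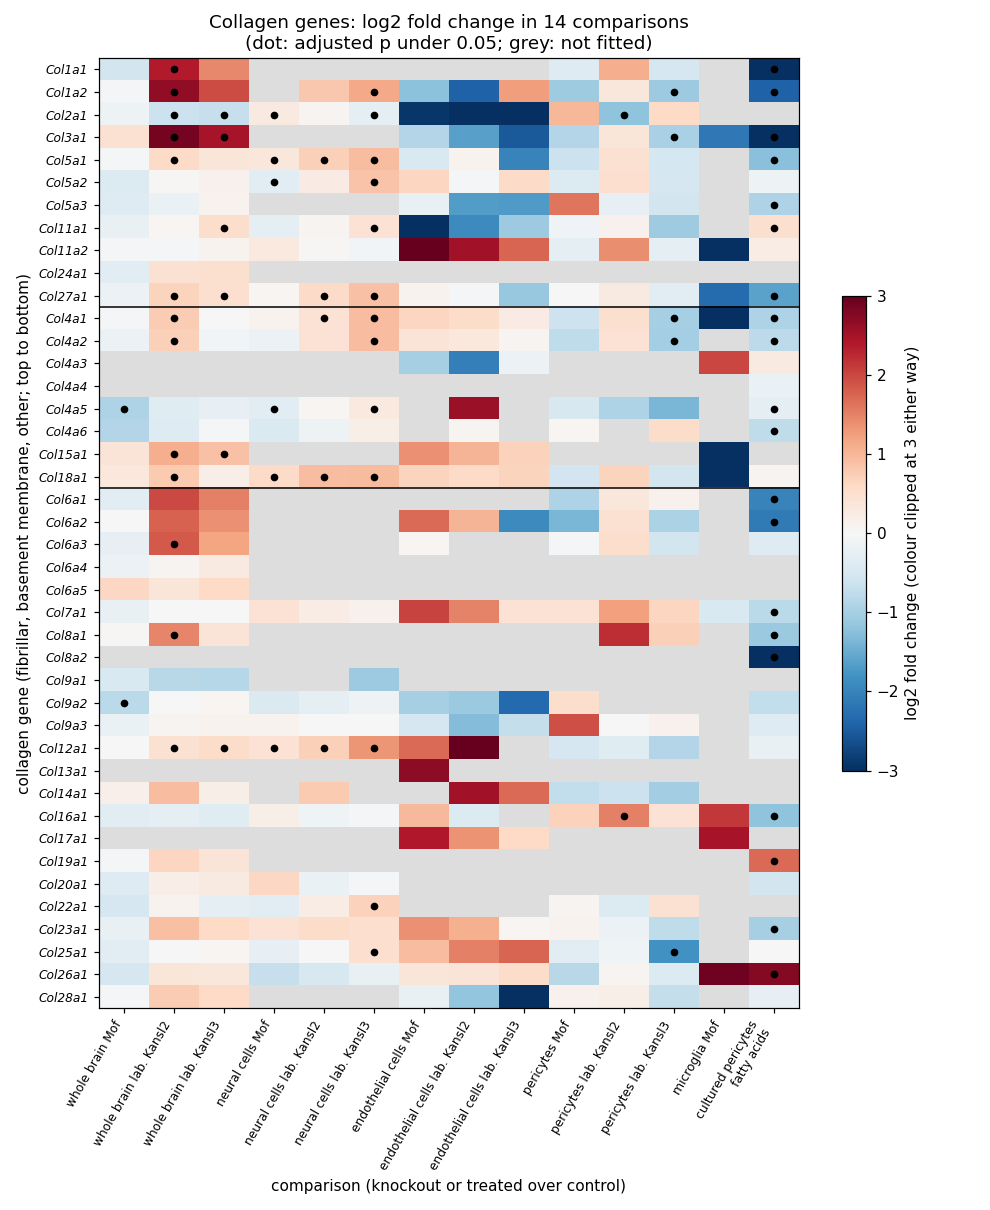
Each row is a collagen gene (fibrillar, basement membrane and other types from top to bottom) and each column 1 of 14 comparisons; colour gives the log2 fold change of knockout over Cre or of fatty acids over vehicle, black dots mark adjusted p under 0.05 and grey cells were not fitted. Dots are mostly red in the whole-brain and neural columns labelled Kansl2 or Kansl3, and mostly blue in the pericyte column labelled Kansl3 and in the culture column.

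In whole brain more collagen genes rose than fell in brains labelled Kansl2 nKO, and most of these calls rested on 1 library, K2_63. In brains labelled Kansl3 nKO the share that rose was near that of all genes. Across whole brain, 38 collagen genes reached the mean of 10 and 37 were kept by edgeR's filter on low counts; levels are CPM scaled by TMM. In brains labelled Kansl2 nKO, 12 of 37 rose (32.4%, against 10.4% of all genes tested) and 1 fell (2.70%, against 16.2%), by edgeR's quasi-likelihood test at a Benjamini-Hochberg adjusted p under 0.05. The median log2 fold change of the 37 was 0.45, against 0.04 for all genes tested. In brains labelled Kansl3 nKO, 5 rose (13.5%, against 15.2% of all genes) and 1 fell (2.70%, against 18.8%), and the median was 0.26, against -0.01. In Mof nKO brains none rose (against 1.93% of all genes) and 2 fell (5.41%, against 4.04%), and the median was -0.19, against -0.01. The 3 comparisons share the same Cre libraries. In bulk samples, fewer cells of a type and less RNA per cell cannot be told apart.

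The fibrillar type I and III genes moved most in the brains labelled Kansl2 nKO, through 1 library. Col3a1 had 93.0, 11.6 and 8.44 CPM in brains labelled Kansl2 nKO, against 4.87, 6.06 and 5.05 CPM in Cre brains. All 3 exceeded every Cre library, and library K2_63 was far above the other 2. Its log2 fold change was 2.86 ± 0.84 (SE, adjusted p = 0.0207), and 0.88 (adjusted p = 0.351) without K2_63. For Col1a2, the values were 51.9, 4.31 and 4.62 CPM against 3.51, 3.15 and 3.43 CPM in Cre, a log2 fold change of 2.66 ± 0.80 (adjusted p = 0.0235) that was 0.39 (adjusted p = 0.623) without K2_63. Col1a1, its partner in type I collagen, had 23.6, 3.08 and 2.43 CPM against 2.99, 1.18 and 1.71 CPM in Cre, and the groups overlapped (2.38 ± 0.72, adjusted p = 0.0234; 0.47, adjusted p = 0.529, without K2_63).

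The same library led in basement membrane genes. Col4a1 had 266.8, 116.9 and 140.9 CPM in brains labelled Kansl2 nKO, against 96.3, 127 and 87.4 CPM in Cre brains, so the groups overlapped (0.76 ± 0.24, adjusted p = 0.0293; 0.30, adjusted p = 0.199, without K2_63). Col4a2 rose with it (0.72 ± 0.25, adjusted p = 0.0486; 0.24, adjusted p = 0.373, without K2_63). DESeq2 ended both calls (adjusted p = 0.0655 for Col4a1 and 0.0948 for Col4a2) and that of Col6a3 (0.0805). Without K2_63, 3 collagen genes passed (Col15a1, Col27a1 and Col2a1), in place of 13, and without Cre_16, Cre_18 or Cre_19 the counts were 5, 6 and 4. Col1a2 and Col3a1 lost their calls without any 1 Cre library (adjusted p = 0.0551 to 0.0709), Col1a1 without Cre_18 or Cre_19 (0.0878 and 0.065), and Col4a1 and Col4a2 without Cre_16 or Cre_19 (0.0919 to 0.146). Library K2_63 had a summed collagen level of 1243 CPM, against 592 and 604 CPM in the other 2 libraries of its label and 575 to 681 CPM in Cre. It also held the most reads for markers of fibroblasts (46.8 CPM, against 15.5 and 14.9 in the other 2 and 27.4 to 31.4 in Cre), of endothelial cells (213.7 CPM, against 112.5 and 142.1, and 112.4 to 141.2 in Cre) and of choroid plexus (361 CPM, against 65.1 and 37.6, and 35.9 to 48.9 in Cre). Summed pericyte and smooth muscle markers were also highest in K2_63 among the Kansl2-labelled and Cre libraries. The part of these cell types in the collagen result was not tested. Of 6 fibroblast markers fitted, Lum rose and Pdgfra fell, and Dpt was at 0 in all 6 libraries. In whole-brain Cre libraries Pdgfra, Prrx1 and Crabp2 made up most of the fibroblast sum. All of these also had reads in sorted Cre neural cells, so in whole brain this sum does not measure fibroblasts alone.

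Col15a1, Col2a1 and Col27a1, which kept their calls without K2_63, also changed. Col15a1, a basement membrane proteoglycan, had 11.4, 9.36 and 9.60 CPM in brains labelled Kansl2 nKO, against 3.85, 4.57 and 5.90 CPM in Cre, without overlap (1.10 ± 0.19, adjusted p = 0.000759). In brains labelled Kansl3 nKO it had 8.73, 8.004 and 9.37 CPM (0.87 ± 0.19, adjusted p = 0.00361). All 6 of these knockout libraries exceeded every Cre library. Col2a1 went the other way, at 60.7, 67.0 and 62.0 CPM in brains labelled Kansl2 nKO (-0.65 ± 0.11, adjusted p = 0.000474) and 59.5, 58.5 and 67.0 CPM in those labelled Kansl3 nKO (-0.69 ± 0.11, adjusted p = 0.000345), against 110, 93.6 and 94.8 CPM in Cre. Neural progenitor markers summed to 976 to 1455 CPM and 874 to 1057 CPM in these brains, against 1161 to 1428 CPM in Cre, so those labelled Kansl3 nKO lay below every control. Under that label 3 of the 8 fell (Fabp7, Hes5 and Sox2), and their part in the Col2a1 values was not tested. Sox9, known in cartilage as a regulator of Col2a1, also fell in brains labelled Kansl3 nKO. Col27a1, a fibrillar chain of cartilage, and Col12a1, a fibril-associated chain, rose under both labels, by 0.67 ± 0.17 and 0.45 ± 0.15 in brains labelled Kansl2 nKO and by 0.49 ± 0.17 and 0.56 ± 0.15 in those labelled Kansl3 nKO (adjusted p = 0.0102, 0.0394, 0.0398 and 0.0112). Col18a1 (0.79 ± 0.21, adjusted p = 0.0139), Col5a1 (0.56 ± 0.18, adjusted p = 0.032), Col8a1 (1.45 ± 0.46, adjusted p = 0.0311) and Col6a3 (1.84 ± 0.64, adjusted p = 0.0442) rose in brains labelled Kansl2 nKO, and all 4 lost the call without K2_63; Col8a1, Col5a1 and Col6a3 also lost it without any 1 Cre library (adjusted p = 0.0589 to 0.125).

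In brains labelled Kansl3 nKO, Col3a1 had 63.8, 13.4 and 11.9 CPM, against 4.87, 6.06 and 5.05 CPM in Cre, again without overlap and with 1 library well above the rest (2.48 ± 0.85, adjusted p = 0.0355; 1.25, adjusted p = 0.264, without K3_117). Leaving out any 1 Cre library also ended this call (adjusted p = 0.0997, 0.0853 and 0.0783). Library K3_117 had 40.1 CPM of fibroblast markers, against 29.5 and 19.6 CPM in the other 2 and 27.4 to 31.4 CPM in Cre, and the part of these cells was not tested. Col1a2 had 23.9, 10.0 and 5.25 CPM there, above every Cre library but not past the threshold (1.96 ± 0.82, adjusted p = 0.0794). Without the filter on low counts it passed (adjusted p = 1.28e-08), and so did Col1a1 (0.000211). Both also passed in the authors' deposited table (3.29e-19 and 1.92e-06), among 13.1% of all genes. Col11a1, a minor fibrillar chain, rose by 0.52 ± 0.14 (adjusted p = 0.0102), a call lost without Cre_18 or K3_149 (adjusted p = 0.0577 and 0.0541). The Col12a1 call there was lost without K3_149 (adjusted p = 0.065), and the Col27a1 call without any library except Cre_18 (adjusted p = 0.0624 to 0.158). Col27a1 also did not pass in the authors' deposited table. In brains labelled Kansl2 nKO, Col12a1 was lost without any library except K2_68 (adjusted p = 0.0559 to 0.111). Col4a1 and Col4a2 did not pass (-0.02 ± 0.24 and -0.09 ± 0.26, adjusted p = 0.955 and 0.805).

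In Mof nKO brains the type IV chain Col4a5 had 9.40, 11.5 and 9.79 CPM, against 19.5, 21.7 and 16.5 CPM in Cre (-0.92 ± 0.25, adjusted p = 0.0446). Col9a2, a fibril-associated chain of cartilage, had 9.004, 6.22 and 10.7 CPM, against 12.9, 15.3 and 17.4 CPM (-0.81 ± 0.22, adjusted p = 0.0445). Neither overlapped its controls. Both calls were narrow: leaving out any 1 of the 6 libraries ended the Col4a5 call (adjusted p = 0.0742 to 0.14), and each of them except Mof_200 ended the Col9a2 call (adjusted p = 0.0659 to 0.176). The summed collagen level was 489 to 508 CPM in Mof nKO brains, below the 575 to 681 CPM of Cre brains in every library.

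**Figure D2:**
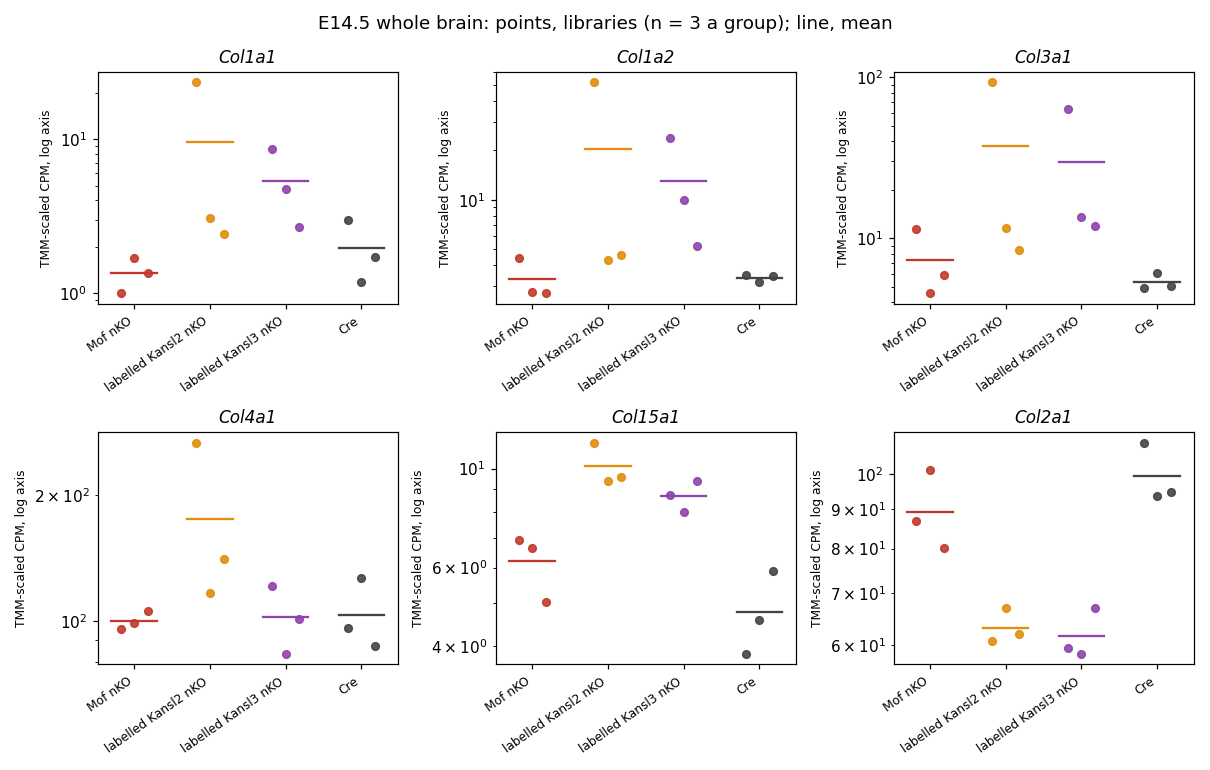
TMM-scaled CPM (log axis) of 6 collagen genes in whole brain; points are libraries, lines are means of 3. Col1a1, Col1a2 and Col3a1 have 1 library labelled Kansl2 nKO far above the rest, while Col15a1 and Col2a1 separate the Kansl2 and Kansl3 labels from Cre in every library.

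In sorted neural cells the collagens that moved mostly rose, and most of them under the Kansl3 label. Values here are the authors' normalised counts, tested with limma on log2(value + 1) among genes with a table mean of at least 10, so fold changes of low genes are understated; the Cre libraries are rescaled in each table. In neural cells labelled Kansl3 nKO, 12 of 23 collagen genes rose (52.2%, against 26.4% of all genes tested) and 1 fell (4.35%, against 28.8%). Their median log2 fold change was 0.43, against 0.01 for all genes. In those labelled Kansl2 nKO, 5 of 23 rose (21.7%, against 20.1%) and none fell (against 22.1%), and the median was 0.21, against 0.01. In Mof nKO neural cells, 4 of 21 rose (against 19.4% of all genes) and 2 fell (9.52%, against 17.1%), and the median was 0.11. Without Cre184, 3 collagen genes passed in Mof nKO cells in place of 6, and without Cre184 or Cre188, 3 passed under the Kansl2 label in place of 5. The share that rose was near the share of all genes for the Mof and Kansl2 groups. All 3 comparisons use the same Cre libraries.

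Col12a1, Col18a1 and Col5a1 rose in all 3 comparisons. Col12a1 had normalised counts of 477, 440 and 469 in neural cells labelled Kansl3 nKO, against 172.8, 195 and 185 in Cre (1.32 ± 0.09, adjusted p = 1.11e-07). In those labelled Kansl2 nKO it had 248, 238 and 254, against 140.7, 158 and 149.9 (0.72 ± 0.11, adjusted p = 0.000112), and in Mof nKO cells 209, 179 and 182, against 132, 148.7 and 141.1 (0.43 ± 0.11, adjusted p = 0.00585). No knockout library overlapped its controls. For Col18a1 the log2 fold changes were 0.58 ± 0.10 in Mof nKO, 0.93 ± 0.11 in Kansl2-labelled and 0.94 ± 0.10 in Kansl3-labelled cells (adjusted p = 0.000253, 1.66e-05 and 2.28e-06). Col5a1, a fibrillar chain that limits fibril width, rose by 0.35 ± 0.12, 0.71 ± 0.14 and 0.93 ± 0.11 in the same order (adjusted p = 0.0268, 0.000661 and 8.8e-06). The Mof nKO call for Col5a1 was lost without Cre184, Cre188 or M646 (adjusted p = 0.0828, 0.103 and 0.103).

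Type IV genes rose under the Kansl3 label, and Col4a1 also under the Kansl2 label, where Col4a2 did not pass (0.44, adjusted p = 0.105). Col4a1 had normalised counts of 230, 216 and 355 in neural cells labelled Kansl3 nKO, against 157, 112 and 147 in Cre (0.92 ± 0.17, adjusted p = 0.000378). Col4a2 had 100.2, 88.2 and 121, against 64.8, 53.3 and 44.8 (0.92 ± 0.18, adjusted p = 0.000615). Neither pair of groups overlapped. Under the Kansl2 label Col4a1 had 148.6, 128 and 180, against 128, 90.6 and 118.8 (0.44 ± 0.16, adjusted p = 0.0371), a call lost without Cre184, Cre188, K2_345 or K2_351 (adjusted p = 0.2, 0.0617, 0.0651 and 0.146). Nor did Col4a1 pass under that label in the authors' deposited table, where 33.0% of all genes passed. In Mof nKO cells Col4a1 and Col4a2 did not pass (0.11 ± 0.16 and -0.17 ± 0.28, adjusted p = 0.634 and 0.677). The summed level of the 10 pericyte markers was 93.2 to 101 CPM in neural cells labelled Kansl3 nKO, against 48.0 to 72.7 CPM in Cre, and that of the 10 endothelial markers was 6.79 to 7.81 CPM, against 3.62 to 4.70 CPM. Neural progenitor markers summed to 1657 to 2000 CPM, against 1120 to 1371 CPM in Cre, choroid plexus markers to 98.8 to 105.7 CPM, against 56.3 to 86.3 CPM, and smooth muscle markers to 5.13 to 8.46 CPM, against 2.15 to 4.43 CPM, each without overlap. Of 4 pericyte markers fitted there, Cspg4 and Notch3 rose and Pdgfrb fell. Notch3 made up most of the pericyte sum. It had normalised counts of 856.2, 759.4 and 767.5, against 591.1, 458.7 and 495.7 in Cre. Otx2 likewise made up most of the choroid plexus sum, and Ttr, Folr1, Kl and Clic6 were each at normalised counts of 11.47 or below. These 2 sums therefore do not show a rise of either marker set as a whole. Of 2 endothelial markers fitted, Kdr rose. Higd1b was at 0 in all libraries, and the part of these other cells in the collagen counts was not tested.

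Among the other genes that rose under the Kansl3 label were Col5a2 (0.86 ± 0.11, adjusted p = 9.66e-06), Col27a1 (0.88 ± 0.17, adjusted p = 0.000427), the fibril-associated Col22a1 (0.69 ± 0.12, adjusted p = 0.000248), the transmembrane Col25a1 (0.50 ± 0.11, adjusted p = 0.00125), Col11a1 (0.43 ± 0.10, adjusted p = 0.00257) and Col1a2 (1.15 ± 0.34, adjusted p = 0.0104). Col1a2 was low, with normalised counts of 27.7, 14.99 and 27.2 against 9.90, 7.80 and 11.5 in Cre. Its call was lost without K3_349 (adjusted p = 0.0526). Col5a2 went the other way in Mof nKO cells, with 201, 225 and 174 against 275, 258 and 220 (-0.33 ± 0.11, adjusted p = 0.0284), where the groups overlapped. Col4a5 fell in Mof nKO cells too, with 136, 121 and 118 against 150, 160 and 158 (-0.32 ± 0.12, adjusted p = 0.0407). Each of these last 2 calls was fragile: Col5a2 lost it without Cre183, Cre184, M643 or M689 (adjusted p = 0.0557 to 0.123), and Col4a5 without any library except M643 (adjusted p = 0.0616 to 0.124). Neither of them passed in the authors' deposited table.

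Col2a1 moved in opposite directions between knockouts of the neural lineage. It rose in Mof nKO neural cells, with normalised counts of 1158, 1107 and 859 against 890, 844 and 838 in Cre, where the groups overlapped (0.27 ± 0.09, adjusted p = 0.021). Under the Kansl3 label it fell, with 794, 893 and 1094 against 1162, 1107 and 1101 (-0.29 ± 0.10, adjusted p = 0.0198). Both calls were narrow: without Cre184, Cre188, M643 or M646 the first had an adjusted p of 0.0676 to 0.133, and without Cre183, Cre184, K3_349 or K3_356 the second had one of 0.0519 to 0.0955. The difference between the 2 knockouts was not tested.

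**Figure D3:**
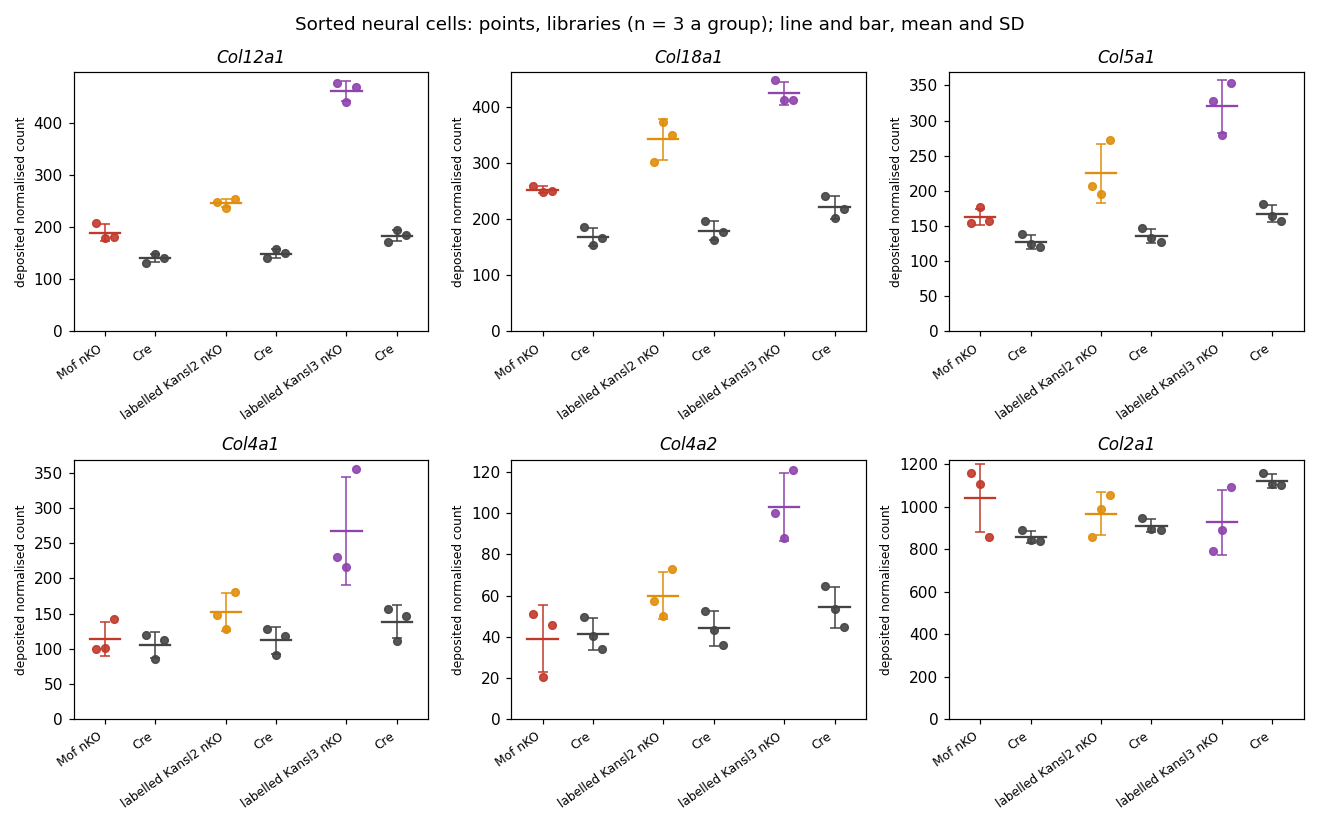
The authors' normalised counts of 6 collagen genes in sorted neural cells, with each knockout left of its own Cre libraries as scaled in that table; points are libraries, lines and bars are means and SD of 3. Col12a1 and Col18a1 lie above Cre in every knockout library, and Col4a1 and Col4a2 lie above Cre in every library labelled Kansl3 nKO.

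In endothelial cells, which had the highest control levels of Col4a1, Col4a2 and Col18a1 among the cell types here, no collagen gene passed the threshold. Limma called 0 of 27 fitted genes in Mof nKO, 0 of 28 in Kansl2-labelled and 0 of 24 in Kansl3-labelled cells, where it also called 0% of all genes tested. EdgeR on the recovered reads also called 0 collagen genes in each. In the authors' deposited table, 2 collagens passed in Mof nKO cells (1.80% of all genes passed there), 1 in Kansl2-labelled cells (0.880%) and 0 in Kansl3-labelled cells (1.30%). The median log2 fold changes were 0.39, 0.21 and 0.07, against 0.09, 0.06 and 0.03 for all genes.

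The medians of basement membrane and fibrillar genes lay on opposite sides of 0, with several fibrillar genes near the floor in controls. Col18a1 had normalised counts of 16282, 19851, 18107 and 22882 in Mof nKO endothelial cells, against 13813, 10683, 12272 and 11496 in Cre, without overlap (0.67 ± 0.15, adjusted p = 0.361 by limma; adjusted p = 0.00764 in the authors' deposited table). Under the Kansl3 label it had 15047, 20732 and 22255, against 13871, 10724, 12327 and 11617, also without overlap (0.66 ± 0.17, adjusted p = 0.529; 0.0521 in the authors' deposited table). Kansl2-labelled cells had 24505, 9745 and 21628, against 13255, 10300, 11777 and 11052 (0.58 ± 0.30, adjusted p = 0.874), where 1 library lay below all controls. Col4a1 in Mof nKO cells had 44969, 63285, 44442 and 62481, against 45768, 29056, 35345 and 27339, so the groups overlapped (0.66 ± 0.19, adjusted p = 0.436). The other Col4a1 and Col4a2 values were 0.08 to 0.54 on the log2 scale, each with an adjusted p over the threshold.

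Col3a1 pointed the other way in these cells. It had 84.4, 75.9 and 61.3 in Kansl2-labelled cells, against 205, 149.4, 172.3 and 500.1 in Cre (-1.62 ± 0.63, adjusted p = 0.831), and 103, 108 and 5.27 in Kansl3-labelled cells, against 215, 156, 180 and 525.6 in Cre (-2.52 ± 1.02, adjusted p = 0.767). The groups did not overlap, and neither comparison passed. The median over 9 fibrillar genes was -0.45, -1.62 and -1.15 for the Mof, Kansl2 and Kansl3 comparisons, and the median over the basement membrane genes fitted was 0.66, 0.54 and 0.25. For the other types it was 0.97, 1.04 and 0.24, and no difference between classes was tested. Several of the fibrillar genes were near the floor: Col5a3 was at 0 in 3 of 4 Cre libraries, and Col2a1 ran from 0.0396 to 57.4 CPM. Col5a2 had the highest control level among them (72.2 CPM) and was not lower in Mof nKO cells (1480, 1284, 1165 and 1525, against 1147, 688, 1256 and 588). Under the Kansl3 label it had 1155, 1315 and 1470, against 1152, 690, 1261 and 595. Both pairs of groups overlapped. The summed pericyte markers were 124 to 391 CPM in Mof nKO, 63.3 to 194 CPM in Kansl2-labelled and 192 to 260 CPM in Kansl3-labelled endothelial libraries, against 356.1 to 439.3 CPM in Cre. The summed fibroblast markers were 81.8 to 112 CPM, 72.8 to 110.5 CPM and 68.5 to 137.4 CPM in the same order, against 107.4 to 154.4 CPM in Cre. None of the 10 pericyte markers, all fitted, passed in any of the 3, and Dpt and Lum, 2 of the 10 fibroblast markers, were at 0 in every library. Their part in the fibrillar values was not tested.

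In pericytes labelled Kansl3 nKO, Col4a1, Col4a2, Col1a2, Col3a1 and Col25a1 fell. Thus 5 of 29 collagen genes fell (17.2%, against 1.24% of all genes tested) and none rose (against 1.88%), and the median log2 fold change was -0.54, against -0.04 for all genes. Col4a1 had normalised counts of 1914, 2645, 2296 and 2562 in pericytes labelled Kansl3 nKO, against 5046, 5302, 3856 and 4506 in Cre. Every library lay below every control (-0.99 ± 0.14, adjusted p = 0.00277). Col4a2 had 1054, 1866, 1502 and 1480, against 3417, 3576, 2047 and 2964, likewise without overlap (-1.02 ± 0.19, adjusted p = 0.0116).

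The fibrillar genes Col1a2 and Col3a1 fell as well. Col1a2 had 403, 468, 388 and 438 in pericytes labelled Kansl3 nKO, against 1276, 943, 727 and 748 in Cre (-1.09 ± 0.18, adjusted p = 0.0074). Col3a1 had 525, 960, 613 and 633, against 1676, 1443, 1060 and 1149 (-0.98 ± 0.20, adjusted p = 0.0161). Neither overlapped its controls. The Col3a1 call was lost without Cre_134 or Cre_139 (-0.86 and -0.93, adjusted p = 0.0643 and 0.06). Col1a1 had 115, 138.8, 184.3 and 89.7, against 443, 69.9, 140.9 and 254, and did not pass (-0.52 ± 0.44, adjusted p = 0.554). Its groups overlapped and its control values were widely spread. The transmembrane Col25a1, whose shed ectodomain binds amyloid, had 44.8, 34.5, 42.3 and 33.2, against 125, 115, 152 and 161 (-1.81 ± 0.31, adjusted p = 0.00793).

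In the pericyte libraries labelled Kansl3 nKO, 3 of 10 pericyte markers fell (Cspg4, Notch3 and Pdgfrb) and none rose. The summed level of the 10 was 9620 to 14199 CPM, against 11060 to 14288 CPM in Cre. Rgs5 made up the largest part of that sum, with normalised counts of 27503, 37857, 34891 and 32843, against 27396, 30713, 25469 and 22062 in Cre. Each of the other markers had a lower mean than in Cre. Neural progenitor markers summed to 4411 to 6316 CPM, against 3208 to 4280 CPM. Of 9 endothelial markers fitted none passed, at 291 to 379 CPM against 370 to 536 CPM, and of 8 fibroblast markers Lum rose and Foxc1 fell. None of the pericyte markers was at 0, and the part of these cells in the collagen counts was not tested. The summed collagen level was 1622 to 2308 CPM, against 2636 to 3858 CPM.

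In Mof nKO pericytes Col1a2, Col3a1, Col4a1 and Col4a2 had negative fold changes that did not pass. Limma called 0 of 29 collagen genes and 0% of all genes, and edgeR on the recovered reads called 0 collagens. Without M_586, limma called 1 collagen gene. Col1a2 had 468, 273 and 331 in Mof nKO pericytes, against 1039, 766, 592 and 611 in Cre, without overlap (-1.07 ± 0.24, adjusted p = 0.157). Col3a1 had 656, 386 and 787, against 1365, 1172, 863 and 940, also without overlap (-0.87 ± 0.24, adjusted p = 0.2). The authors' deposited table had adjusted p = 0.00525 for Col1a2 and 0.0473 for Col3a1, among 2.01% of all genes passing there. For Col4a1 and Col4a2 the values were -0.61 ± 0.19 and -0.77 ± 0.23 (adjusted p = 0.226 and 0.224), with overlap. Summed pericyte markers were 5918 to 8465 CPM, against 11060 to 14288 CPM in Cre, and none of the 10 passed; their part was not tested.

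Under the Kansl2 label 1 collagen gene rose in pericytes, Col16a1, and 1 fell, Col2a1. Of 28 collagen genes fitted this was 3.57% each way, against 0.951% of all genes that rose and 1.26% that fell, and the median was 0.33, against -0.04. Col16a1, a fibril-associated chain, had 208, 218 and 118 in pericytes labelled Kansl2 nKO, against 55.0, 67.97, 57.4 and 61.3 in Cre (1.52 ± 0.31, adjusted p = 0.0199). Col2a1 had 162, 116 and 111, against 224, 232, 327.9 and 465 (-1.22 ± 0.27, adjusted p = 0.0328). Neither overlapped. Without Cre_142 or K2_330 neither passed. Col16a1 also lost its call without Cre_134, and Col2a1 without Cre_141 or K2_338 (adjusted p = 0.0519 to 0.0841 for Col16a1 and 0.0873 to 0.1 for Col2a1). Col4a1 had 6893, 5099 and 5249, against 4426, 4641, 3411 and 4024, above every control but not past the threshold (0.47 ± 0.13, adjusted p = 0.0814). In the authors' deposited table Col4a1 (adjusted p = 0.0227) and Col7a1 (0.0121) passed beside Col16a1 and Col2a1, among 5.20% of all genes. Beside the fall of Col2a1, 4 of 8 neural progenitor markers fell (Fabp7, Hes5, Slc1a3 and Sox2), their sum was 1788 to 2231 CPM, against 3208 to 4280 CPM in Cre, and Sox9 fell; their part was not tested.

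**Figure D4:**
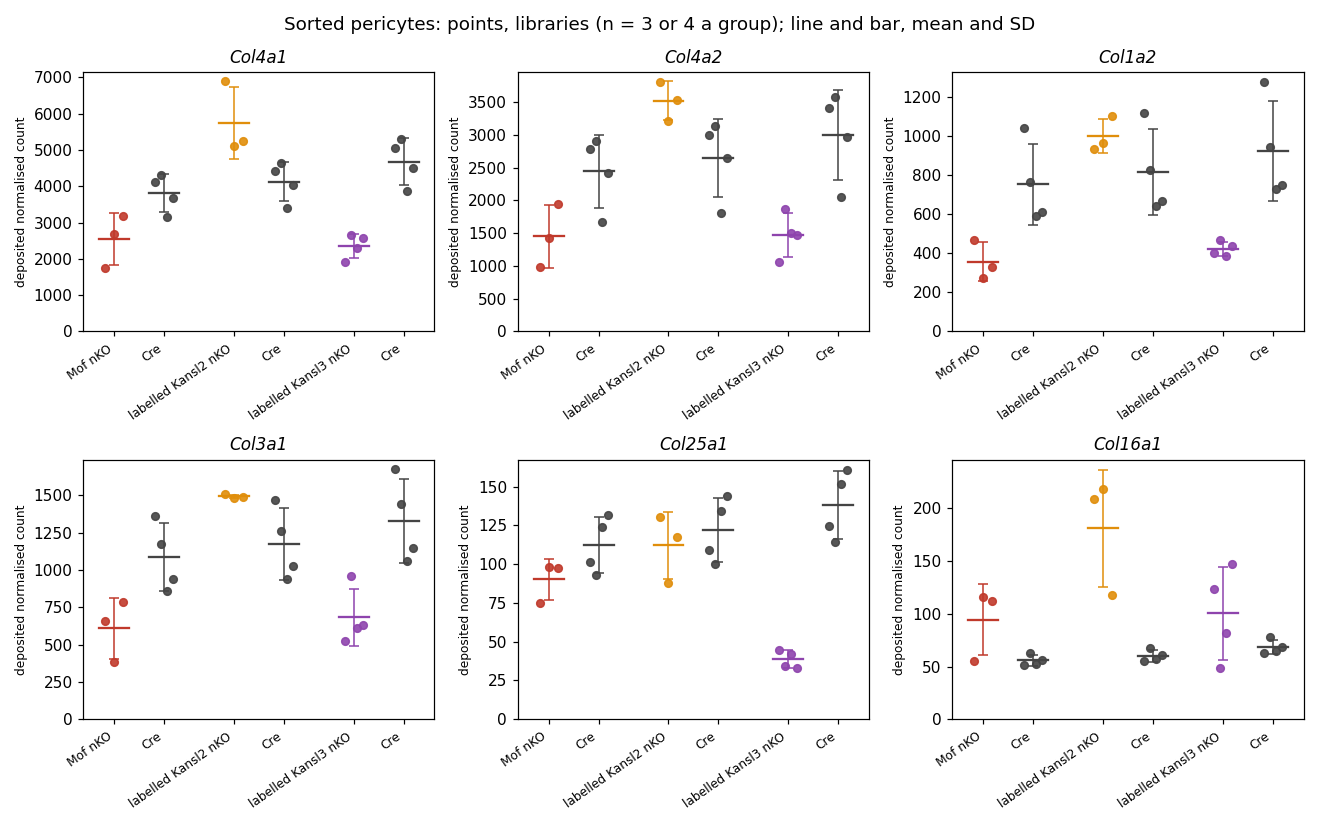
The authors' normalised counts of 6 collagen genes in sorted pericytes, with each knockout left of its own Cre libraries as scaled in that table; points are libraries, lines and bars are means and SD. Col4a1, Col4a2, Col1a2, Col3a1 and Col25a1 lie below Cre in every library labelled Kansl3 nKO, whereas Col4a1 lies above Cre in every library labelled Kansl2 nKO.

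In microglia collagen reads were sparse. Of 11 collagen genes fitted, limma called 0, and it called 0% of all genes. EdgeR on the recovered reads, which kept 4 collagens, called 0. The median log2 fold change of the 11 was -2.13, against -0.50 for all genes. Col4a1 had no read in 14173277 reads of the 3 Mof nKO libraries together, against 107, 78 and 15 reads in the Cre libraries, so with 3 reads over the group as the floor it was at least 36.0-fold lower. Col18a1 likewise had none, against 83, 11 and 5 reads (at least 17.8-fold lower). Most of these reads came from library Cre203, so the Col18a1 bound rests mainly on it. These bounds cover counting error only. Neither gene passed by limma (adjusted p = 0.198 and 0.401). The authors' deposited table had Col4a1 lower (adjusted p = 0.00595) and Col16a1 higher (2.44e-06), among 5.06% of all genes passing there. Col16a1 had normalised counts of 0, 81.05 and 0 in Mof nKO and 0 in every Cre library, so its call rests on library M646 alone. Summed pericyte markers were 0.832 to 22.5 CPM, against 12.1 to 104 CPM in Cre, and endothelial markers 21.7 to 72.8 CPM, against 31.4 to 110 CPM; Higd1b and Emcn were at 0 in every library, and their part was not tested.

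In cultured pericytes, more collagen genes fell than rose with fatty acids. Of 33 genes with a mean of at least 10 reads, 31 were kept by the filter; with Col26a1, which had a lower mean, 32 were fitted. Of these, 17 fell (53.1%, against 34.3% of all genes tested) and 3 rose (9.38%, against 32.3%), by edgeR's quasi-likelihood test. The median log2 fold change was -0.75, against -0.04. The summed collagen level was 2014 to 2562 CPM with fatty acids, against 4808 to 4860 CPM with vehicle. Fibrillar types summed to 382 to 427 CPM, against 1113 to 1115 CPM, and basement membrane types to 1310 to 1740 CPM, against 2780 to 2841 CPM.

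The type I and III genes had wide gaps. Col3a1 had 12.4, 9.63 and 9.38 CPM with fatty acids, against 136, 128 and 133 CPM with vehicle (-3.66 ± 0.12, adjusted p = 1.73e-06). Col1a1 had 4.60, 3.42 and 3.67 CPM, against 32.0, 33.8 and 34.5 CPM (-3.10 ± 0.13, adjusted p = 2.31e-06). Col1a2 had 59.6, 41.8 and 39.3 CPM, against 250, 248 and 260 CPM (-2.43 ± 0.16, adjusted p = 1.41e-05). No library overlapped the other group in any of these. Col5a1 fell by 1.25 ± 0.08 (adjusted p = 1.42e-05), Col5a3 by 0.92 ± 0.13 (adjusted p = 0.000551) and Col27a1 by 1.60 ± 0.14 (adjusted p = 4.86e-05), whereas Col11a1 rose, with 62.7, 63.2 and 51.1 CPM against 42.0, 42.3 and 43.1 CPM (0.47 ± 0.09, adjusted p = 0.00308).

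Among basement membrane genes the gaps were narrower. Col4a1 had 975, 732 and 632 CPM with fatty acids, against 1466, 1490 and 1517 CPM with vehicle (-0.94 ± 0.16, adjusted p = 0.00147), and Col4a2 had 441, 370 and 306 CPM, against 616, 645 and 654 CPM (-0.78 ± 0.13, adjusted p = 0.0015). Col4a6 fell by 0.76 ± 0.11 (adjusted p = 0.000643). Col18a1 did not pass (0.09 ± 0.11, adjusted p = 0.509). The median was -1.25 over 9 fibrillar genes, -0.26 over 7 basement membrane genes and -0.65 over 16 others; the difference between these classes was not tested.

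Among the other types, the type VI chains Col6a1 and Col6a2 fell by 2.01 ± 0.26 and 2.13 ± 0.18 (adjusted p = 0.00032 and 3.85e-05), and the type VIII chains Col8a1 and Col8a2 by 1.12 ± 0.10 and 3.76 ± 0.31 (adjusted p = 6.45e-05 and 3.95e-05). Col8a2 was low, at 0.208, 0.340 and 0.114 CPM against 3.35, 2.69 and 3.03 CPM. Col16a1 fell by 1.21 ± 0.18 (adjusted p = 0.00075). The 2 other genes that rose, Col19a1 and Col26a1, which are outside the fixed naming rule and were chosen after their values were seen, stayed under 1 CPM in all 6 libraries. With fatty acids, 5 of 6 pericyte markers fitted fell and Cspg4 rose, summing to 32.8 to 38.2 CPM against 210 to 223 CPM with vehicle. Kcnj8 and Higd1b were at 0 in all vehicle libraries. Abcc9, Vtn, Cspg4, Anpep, Rgs5 and Ndufa4l2 were each at 3.09 CPM or less there. Pdgfrb (118.6, 131.2 and 128.5 CPM) and Notch3 made up most of the vehicle sum. Most of the marker set was therefore low or absent in the culture, and its cells are called pericytes by their label alone. Of 7 fibroblast markers 4 fell, Lum was at 0, and their sum was 455 to 538 CPM, against 758 to 787 CPM; the part of a change in cell make-up was not tested.

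**Figure D5:**
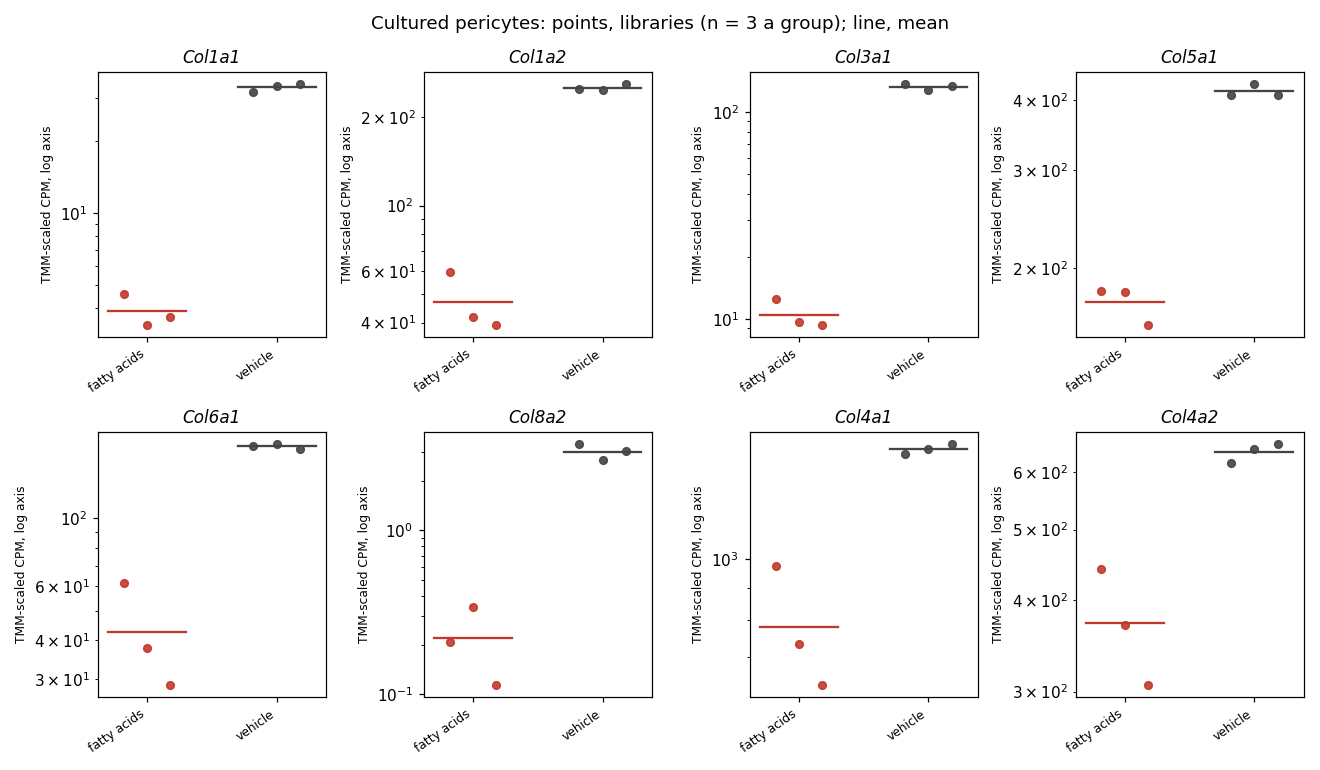
TMM-scaled CPM (log axis) of 8 collagen genes in cultured pericytes with fatty acids (left) and vehicle (right); points are libraries, lines are means of 3. The 3 fatty-acid libraries lie below all vehicle libraries for each gene shown, with the widest gaps for Col8a2, Col3a1 and Col1a1.

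Genes that make or bind collagen were followed from 2 lists, 32 for synthesis, export and cross-linking and 11 for receptors. In whole brain and neural cells, Mia3, which loads procollagen into transport carriers, and Loxl3, a lysyl oxidase that cross-links collagen, fell in all 6 comparisons. Loxl3 in neural cells had normalised counts of 3.41, 13.1 and 7.48 in Mof nKO, against 31.0, 29.7 and 21.4 in Cre (-1.79 ± 0.39, adjusted p = 0.00171), and its whole-brain log2 fold changes were -1.16, -0.84 and -1.02 for Mof, Kansl2 and Kansl3 (adjusted p = 0.024, 0.0259 and 0.00945). Mia3 fell by 0.43, 0.48 and 0.48 in whole brain (adjusted p = 0.0167, 0.00128 and 0.0013). P4hb, a subunit of prolyl 4-hydroxylase, rose in neural cells by 0.39 ± 0.06 in Mof nKO (adjusted p = 0.00011) and by 0.46 ± 0.07 under the Kansl2 label (adjusted p = 0.000122).

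Across the enzyme list in neural cells, 5 rose and 3 fell of 27 in Mof nKO, 6 rose and 4 fell of 28 under the Kansl2 label, and 9 rose and 6 fell of 28 under the Kansl3 label. Of all genes tested, 19.4%, 20.1% and 26.4% rose in these comparisons and 17.1%, 22.1% and 28.8% fell, so the enzymes' counts were near those shares or below them, apart from the 9 that rose under the Kansl3 label. The lysyl hydroxylase Plod2 had 391, 348.4 and 427 in neural cells labelled Kansl3 nKO, against 175, 191 and 228 in Cre (0.97 ± 0.12, adjusted p = 7.15e-06). In whole brain 0 rose and 3 fell of 30 in Mof nKO, 3 rose and 2 fell under the Kansl2 label, and 5 rose and 2 fell under the Kansl3 label, against 1.93%, 10.4% and 15.2% of all genes that rose and 4.04%, 16.2% and 18.8% that fell. Pcolce, which enhances cleavage of the C-propeptide of fibrillar procollagen, had 2.82, 1.11 and 1.503 CPM in brains labelled Kansl2 nKO, against 0.513, 0.551 and 0.286 CPM in Cre (2.03 ± 0.42, adjusted p = 0.00259). In pericytes P4ha3 fell under the Kansl2 label (-1.53 ± 0.32, adjusted p = 0.0246) and Mia3 under the Kansl3 label (-1.01 ± 0.23, adjusted p = 0.031), and no other enzyme passed in sorted vascular cells or microglia.

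Of the receptors, Ddr2, a receptor tyrosine kinase for fibrillar collagen, rose under both Kansl labels. In neural cells it had 81.5, 55.9 and 51.6 under the Kansl2 label, against 8.79, 15.8 and 12.6 in Cre (2.26 ± 0.28, adjusted p = 1.64e-05), and 76.9, 68.8 and 75.6 under the Kansl3 label, against 10.8, 19.5 and 15.6 (2.23 ± 0.25, adjusted p = 3.64e-06). Every knockout library lay above every control. In whole brain it rose by 1.14 ± 0.19 and 1.32 ± 0.19 (adjusted p = 0.000565 and 0.0002). Itgb1, the beta chain of the collagen-binding integrins, rose in all 3 neural comparisons (0.26 ± 0.07, 0.36 ± 0.08 and 0.52 ± 0.07; adjusted p = 0.00645, 0.00149 and 3.02e-05). Adgrg1, a receptor for type III collagen in developing cortex, fell in whole brain by 0.26 ± 0.08 in brains labelled Kansl2 nKO and by 0.46 ± 0.08 in those labelled Kansl3 nKO (adjusted p = 0.02 and 0.000539), and in pericytes under the Kansl2 label (-1.56 ± 0.31, adjusted p = 0.0194). Summed neural progenitor markers were also lower in those pericyte libraries, as given above, and their part in this Adgrg1 value was not tested. In whole brain, 0 of 10 receptors passed in Mof nKO. Under the Kansl2 label 4 rose and 1 fell, and under the Kansl3 label 3 rose and 2 fell. Of all genes tested, 1.93%, 10.4% and 15.2% rose in these 3 comparisons and 4.04%, 16.2% and 18.8% fell.

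In culture 10 of 31 enzymes rose, close to the 32.3% of all genes that rose, and 17 fell, against 34.3% of all genes. P4ha3 had 2.50, 1.38 and 1.28 CPM with fatty acids, against 23.9, 22.1 and 23.6 CPM with vehicle (-3.75 ± 0.24, adjusted p = 1.19e-05). Of the lysyl oxidases Lox, Loxl1, Loxl2 and Loxl3 fell and Loxl4 rose, and of the procollagen proteases Bmp1, Adamts2 and Adamts3 fell and Adamts14 rose. The others that rose were Serpinh1, P4hb, Ppib, P3h1, P4ha2, Pcolce2, Mia3 and Ctage5 (1.12 ± 0.09 for Ctage5, adjusted p = 2.93e-05). Of 9 receptors fitted, 6 fell, among them the uptake receptor Mrc2 (-1.16 ± 0.15, adjusted p = 0.000385), and Ddr2 rose, with 379, 392.4 and 346 CPM against 215, 224 and 228 CPM (0.74 ± 0.08, adjusted p = 0.000124).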

How the data were processed

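Raw read counts per Ensembl gene for whole brain and cultured pericytes were deposited by the authors, who mapped reads to mm10 with STAR and counted them with featureCounts, per the submitters' processing notes. For sorted cells the authors deposited a signal, gene counts divided by 1 size factor per library within each table; 100% of values in 68 library columns came out as whole reads (tolerance 0.01). The authors' deposited tables also gave log2 fold changes and adjusted p-values. The versions of those tools are not stated. The 21 chromatin samples were not used.

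Counts were tested with edgeR 4.0.16 (quasi-likelihood, TMM, filterByExpr; 1 fit for the 12 whole-brain libraries, 1 for the 6 cultures). Sorted cells were tested with limma 3.58.1 on log2(value + 1), 1 fit per table, keeping genes whose table mean reached 10, since these values are not raw counts. P-values were Benjamini-Hochberg adjusted over all genes, with a threshold of 0.05, and errors of fold changes are SE. Alternatives were RLE size factors, DESeq2 1.42.0, edgeR on the recovered reads, a pseudocount of 10, no filter and each library left out. The fits were tested on simulated data. Of 72 replicate pairs none agreed within sampling noise. One endothelial Mof nKO column carried another number than the labels and was placed by its group only.

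Named genes were Col1a1, Col1a2, Col3a1, Col4a1 and Col4a2 in every comparison, up to 12 collagens that passed with the smallest p, up to 4 genes from each of the enzyme and receptor lists, and the targeted gene; others are named as examples of a count. Members and lists were chosen with earlier results of these data known.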

Additional observations from a re-analysis of the deposited data

Results flagged for a closer look

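Several collagen genes lay above every Cre library in 1 cell type and below every Cre library in another under the same label. The share of all genes that did so was not counted, so the list is not read as a trait of collagen genes. None of these differences between cell types was tested, and the tables were normalised separately. All values are log2 fold changes of the labelled knockout over Cre.

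Under the Kansl2 label, Col3a1 was 2.86 in whole brain and 0.37 in pericytes, against -1.62 in endothelial cells. The whole-brain call was lost without K2_63, and the other 2 values did not pass. In pericytes the margin was narrow, with normalised counts of 1507, 1485 and 1491 against a highest Cre value of 1470. Under the Kansl3 label, Col3a1 was 2.48 in whole brain, -0.98 in pericytes and -2.52 in endothelial cells, and Col1a2 was 1.96 in whole brain, 1.15 in neural cells and -1.09 in pericytes. Neither Col3a1 in endothelial cells nor Col1a2 in whole brain passed under this label. The whole-brain Col3a1 call was lost without K3_117. The type IV chains split between neural cells and pericytes labelled Kansl3 nKO, with Col4a1 at 0.92 and -0.99 and Col4a2 at 0.92 and -1.02. Col25a1 was 0.50 in neural cells and -1.81 in pericytes of that label.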

How the results depend on the processing

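Of 656 values of named genes recomputed with 1 library left out, 541 kept their direction and side of the threshold, 97 lost the call and 18 changed sign; of 319 under other settings, 312 kept both, 4 lost the call, 2 gained it and 1 changed sign. The 4 lost were Col4a1, Col4a2 and Col6a3 in whole brain labelled Kansl2 nKO with DESeq2, and Col4a5 in Mof nKO neural cells without the filter (adjusted p = 0.0571); the 2 gained were Col1a1 and Col1a2 in whole brain labelled Kansl3 nKO without the filter. DESeq2 gave no adjusted p for Col3a1 in the 3 whole-brain comparisons. The cause was not tested for any of them. Without the filter on low counts, 4 collagen genes passed in Mof nKO whole brain, in place of 2, and 11 in whole brain labelled Kansl3 nKO, in place of 6.

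With 1 library left out, the number of collagen genes past the threshold ranged over 0 to 1 (Mof nKO), 3 to 18 (Kansl2 label) and 4 to 5 (Kansl3 label) in whole brain, and over 3 to 5, 3 to 5 and 10 to 13 in neural cells in the same order. It ranged over 0 to 1, 0 to 2 and 4 to 6 in pericytes and 19 to 24 in culture, and was 0 throughout in endothelial cells and microglia.

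The sign changes were all in values that did not pass. In Mof nKO whole brain the values ranged over -0.29 to 0.11 for Col1a2, -0.0124 to 0.70 for Col3a1, -0.15 to 0.11 for Col4a1 and -0.29 to 0.0275 for Col4a2. In whole brain labelled Kansl3 nKO they were -0.16 to 0.13 for Col4a1 and -0.27 to 0.11 for Col4a2. In Mof nKO neural cells they were -0.0587 to 0.21 for Col4a1 and -0.41 to 0.24 for Col4a2. In endothelial cells labelled Kansl3 nKO they were -0.37 to 2.03 for Col1a2 and -0.0398 to 0.20 for Col4a2. In Mof nKO pericytes they were -1.34 to 0.47 for Col1a1, which was 0.054 with edgeR on the recovered reads.

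Culture libraries share numbers between treatments. Their deviations correlated at 0.34, 0.207 and 0.061 within numbers, and treated library 2 correlated best with vehicle library 3 (0.32), so the numbers were not taken as pairing. With a replicate block 21 collagen genes passed (3 up, 18 down), in place of 20. DESeq2 moved the median of all genes in culture to 0.21. How far depth limited the calls in pericytes was not tested.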
